A study of Mus musculus with 6 samples.

Results

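The genes of DNA replication and nucleotide synthesis were examined as a set of 41 genes out of 38561 gene IDs counted in each library. The members were chosen from a list of S phase genes by symbol, and each symbol matched a single Ensembl gene ID. RNA was sequenced from 3 groups of 2 mouse libraries, and all 3 groups came from NG2-Cre;p53flox/flox animals on a mixed background, so the controls carry the same Cre and floxed Trp53 alleles as the tumours. The first group was muscle cells isolated by an NG2 antibody, labelled normal perivascular cells and called NG2 cells here. The second was primary osteosarcoma, a right tibia tumour as replicate 1 and a lumbar spine tumour (Lumber spine in the labels) as replicate 2, and the third was primary soft tissue sarcoma of the subcutaneous tissue. The Cre recombinase, which removes the floxed part of Trp53, is expressed from regulatory sequence of the NG2 proteoglycan gene Cspg4. The labels gave neither age nor sex nor the number of animals behind a library, so p-values measure only the spread between these samples, which may be technical.

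Before a cell copies its genome, the origin recognition complex with Cdc6 and Cdt1 loads the MCM helicase onto DNA in G1. In S phase the Cdc7-Dbf4 kinase, Mcm10, Cdc45 and the GINS complex turn the loaded helicase on. Polymerases alpha, delta and epsilon then copy the strands with the sliding clamp PCNA and its loader RFC, while ribonucleotide reductase, thymidylate synthase and thymidine kinase supply deoxynucleotides. Many of these genes are known targets of E2F factors and are transcribed around the start of S phase in dividing cells.

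Counts on genes came to between 27693585 and 58126832 per library, and no member had fewer than 63 counts in any library. The NG2 libraries also held RNA of blood cells: 6 B cell markers summed to 5146 and 1698 CPM (counts scaled to library size by TMM) in replicates 1 and 2 against 2.88 to 14.0 CPM in the tumours, and all 6 fell in both tumour comparisons. Among them Ms4a1 was at 0 in both osteosarcomas and Fcer2a in osteosarcoma replicate 2. The 8 markers of neutrophils and their precursors, some of which divide, summed to 65.6 and 3297 CPM in the NG2 replicates and 12.4 to 28.5 CPM in the tumours; 5 fell in osteosarcoma and 3 in soft tissue sarcoma. All 7 markers of pericytes, the labelled cell type, were present in the NG2 libraries, where they summed to 898 and 1435 CPM, mostly from Rgs5 at 772 and 1290 CPM, against 300.3 to 780.2 CPM in the tumours. Cspg4 itself was at 38.6 and 30.65 CPM in the NG2 libraries and 37.7 to 188 CPM in the tumours, and Pdgfrb and Mcam were higher in every tumour library than in both NG2 libraries. T cell markers (6 of 6) and endothelial markers (3 of 6) fell in both tumour comparisons, and macrophage markers (3 of 6) rose in both. The floxed gene Trp53 had 101 and 82.3 CPM there and 24.3 to 32.6 CPM in the tumours. The deposited library names carry a different flow cell lane for each group, so lane and group cannot be told apart. In bulk RNA, fewer cells of a type and less RNA per cell cannot be told apart either.

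The promoters of the members share sequence letters that the choice of the list did not use. RefSeq windows of 250 bases before to 50 bases after an annotated start (GRCm38.p6) were found for 34 of the 41 members. An E2F-type word, any of TTTCCCGC, TTTCGCGC, TTTGCCGC and TTTGGCGC on either strand, was present in 13 of these 34 genes (38.2%) and in 2.6% of 27025 genes with a window. They were Orc1, Cdc6, Cdt1, Mcm3, Mcm5, Mcm6, Mcm7, Gins3, Rfc3, Pola1, Pold1, Pole2 and Lig1. For comparison, the Sp1-type word GGGCGG stood in 76.5% of the members and 38.2% of all genes, the CCAAT word in 58.8% and 41.1%, and the CHR word TTTGAA in 17.6% and 20.2%. All 4 words were searched on both strands; base composition was not matched between members and other genes, and a match is a description of letters, not a bound site.

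The windows below are those of Mcm5, Mcm6, Pole2, Cdc45 and Pcna, 5′ to 3′ on the gene's strand, with E2F-type words in capitals. Mcm5, Mcm6 and Pcna passed in neither tumour comparison. Among members with a window, 1 of the 7 that rose in a tumour comparison and 12 of the 27 others held an E2F-type word. The share was 2.6% over all genes with a window. Gins2 and Pole rose but had no window. Only exact words were searched, so a window without one may still hold an E2F site, and the difference was not tested. Mcm5 (chr8:75109259-75109558, plus strand) and Mcm6 (chr1:128359656-128359955, minus strand) are helicase subunits in which 2 such words on opposite strands overlap, beginning at bases -153 and -149 from the start in Mcm5 and at -110 and -106 in Mcm6. Mcm6 has another at -47. Pole2 (chr12:69228141-69228440, minus strand), which rose in both tumours, has a word that begins at base 11 after the start. Cdc45 (chr16:18811923-18812222, minus strand), which also rose in both, and Pcna (chr2:132253131-132253430, minus strand), which had lower values in every tumour library, have none of these words in the window.
Mcm5: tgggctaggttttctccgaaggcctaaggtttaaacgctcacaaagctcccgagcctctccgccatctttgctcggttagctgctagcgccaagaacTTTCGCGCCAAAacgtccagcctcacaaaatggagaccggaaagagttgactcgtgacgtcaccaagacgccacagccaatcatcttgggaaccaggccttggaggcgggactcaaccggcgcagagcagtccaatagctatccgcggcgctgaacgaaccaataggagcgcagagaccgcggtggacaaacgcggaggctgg
Mcm6: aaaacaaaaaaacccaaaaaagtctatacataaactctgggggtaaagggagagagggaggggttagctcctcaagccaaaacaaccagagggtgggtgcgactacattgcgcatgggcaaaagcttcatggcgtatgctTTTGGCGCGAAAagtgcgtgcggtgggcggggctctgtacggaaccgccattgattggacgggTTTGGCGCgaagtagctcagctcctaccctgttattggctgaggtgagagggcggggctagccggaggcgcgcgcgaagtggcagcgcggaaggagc
Pole2: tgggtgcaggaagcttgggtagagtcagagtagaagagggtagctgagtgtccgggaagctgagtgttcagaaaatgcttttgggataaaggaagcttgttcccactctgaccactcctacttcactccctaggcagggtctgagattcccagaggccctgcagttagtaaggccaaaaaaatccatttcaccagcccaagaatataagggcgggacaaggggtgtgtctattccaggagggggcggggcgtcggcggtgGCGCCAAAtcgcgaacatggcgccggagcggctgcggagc
Cdc45: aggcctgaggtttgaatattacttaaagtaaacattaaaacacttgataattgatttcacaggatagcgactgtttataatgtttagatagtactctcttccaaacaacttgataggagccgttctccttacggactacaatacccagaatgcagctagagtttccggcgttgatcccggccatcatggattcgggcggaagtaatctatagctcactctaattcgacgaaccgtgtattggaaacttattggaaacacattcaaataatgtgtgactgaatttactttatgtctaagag
Pcna: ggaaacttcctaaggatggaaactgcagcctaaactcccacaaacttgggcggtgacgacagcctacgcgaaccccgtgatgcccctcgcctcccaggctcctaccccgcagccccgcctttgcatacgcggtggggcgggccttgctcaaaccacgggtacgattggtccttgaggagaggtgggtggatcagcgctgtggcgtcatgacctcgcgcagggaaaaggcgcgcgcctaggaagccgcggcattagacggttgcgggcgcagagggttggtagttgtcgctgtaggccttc

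Osteosarcoma was compared with NG2 cells to ask which replication genes differed between the bone tumours and the sorted cells. Of the 41 members, 8 rose (19.5%), none fell and 33 did not pass, while 10.5% of all 19024 tested genes rose and 11% fell. The 8 were Mcm10, Cdc45 and Gins2 of helicase activation, the clamp loader gene Rfc5, the polymerase epsilon genes Pole and Pole2, and Tyms and Tk1 of thymidine nucleotide supply, with rises between 2.65-fold and 5.45-fold. In soft tissue sarcoma 9 members rose (21.95%), none fell and 32 did not pass, against 9.89% of all tested genes that rose and 9.4% that fell. These were the same 8 genes and Rrm2, the small subunit of ribonucleotide reductase, with rises between 2.59-fold and 7.56-fold. Both comparisons use the same NG2 libraries, so they are not independent of each other. The members' median log2 fold change was 0.70 in osteosarcoma and 0.74 in soft tissue sarcoma, where the medians over all tested genes were 0.035 and 0.

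In osteosarcoma both libraries were above both NG2 libraries for 20 members and below both for 3, patterns of 32.7% and 32.4% of all tested genes. In soft tissue sarcoma this held for 26 and 1 members, beside 35.8% and 34.6% of all tested genes. Over both tumour types the libraries did not overlap for 18 members with all 4 tumour libraries above both NG2 libraries, a pattern of 24.6% of all tested genes. Pcna was the 1 member with all 4 tumour libraries below both NG2 libraries, as were 25.9% of all tested genes. The other 22 members overlapped. All listed markers of B cells and T cells were called in the same comparisons. Only some of those of neutrophils and their precursors, endothelial cells and macrophages were. The part of these cells in the results was not tested.

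Calls were made with edgeR's quasi-likelihood test at a Benjamini-Hochberg adjusted p under 0.05, with 2 libraries per group. The number of calls depended on single libraries: in osteosarcoma it was 1 without osteosarcoma replicate 1, 15 without osteosarcoma replicate 2 and 0 without either NG2 library or either soft tissue sarcoma library. In soft tissue sarcoma it was 0 without NG2 replicate 2 or either soft tissue sarcoma library, 1 without NG2 replicate 1, and 14 without either osteosarcoma library. Over these fits the share of all genes called ran from 6.33% to 16.6% in osteosarcoma and from 0% to 22.8% in soft tissue sarcoma. Fitted on the 2 groups alone, the test called 0 members in osteosarcoma and 15 in soft tissue sarcoma, where it called 11.6% and 30.1% of all genes. DESeq2 called 14 and 13 members, all of them higher in the tumours, beside 35.9% and 33.7% of all genes. The shares of all genes in this paragraph count both directions, so they are not a background for rises alone.

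**Figure D1:**
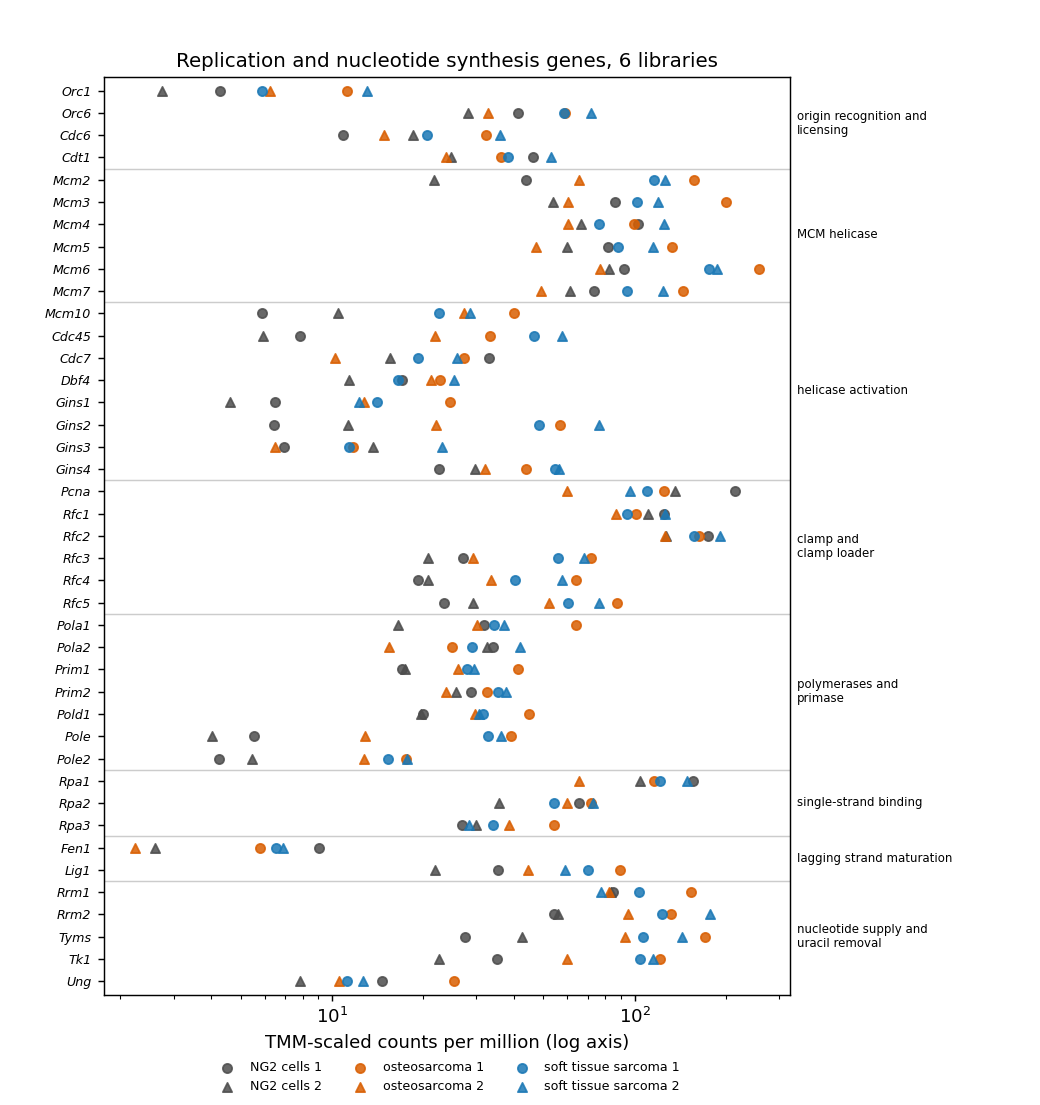
CPM of each of the 41 members in each of the 6 libraries, on a log axis, grouped by role; circles are replicate 1 and triangles replicate 2. Tumour points lie to the right of both NG2 points for 18 members, among them Mcm10, Cdc45, Pole and Tyms, and to the left of both for Pcna.

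Among the genes that license origins, none of the 4 members passed in either comparison. Orc1, the largest subunit of the origin recognition complex, stood at 4.27 and 2.75 CPM in the NG2 libraries, at 11.2 and 6.22 in the osteosarcomas and at 5.89 and 13.1 in the soft tissue sarcomas. Each tumour library was above both NG2 libraries for Orc1, but the log2 fold changes of 1.31 ± 0.64 (± is the SE throughout, with n = 2 libraries in each group; edgeR adjusted p = 0.184) and 1.43 ± 0.64 (edgeR adjusted p = 0.162) did not pass. Orc6, another subunit of the complex, ranged from 28.2 to 71.6 CPM over the 6 libraries. Cdc6, the ATPase that helps load the helicase, ranged from 10.9 CPM in NG2 replicate 1 to 36.02 CPM in soft tissue sarcoma replicate 2. Cdt1, its partner in loading, stood at 46.4 and 24.8 CPM in the NG2 libraries, at 36.1 and 23.8 in the osteosarcomas and at 38.2 and 52.9 in the soft tissue sarcomas. Both tumour groups overlapped NG2 cells for Cdt1, whose log2 fold changes were -0.25 ± 0.43 and 0.36 ± 0.43 (edgeR adjusted p = 0.701 and 0.576).

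The 6 subunits of the MCM helicase, which form a ring with each subunit once, did not pass in either tumour, with log2 fold changes of -0.09 to 1.77 in osteosarcoma and 0.25 to 1.89 in soft tissue sarcoma. Mcm2 (ENSMUSG00000002870; chromosome 6, 88883474 to 88898780, GRCm38) came nearest. It stood at 43.7 and 21.8 CPM in the NG2 libraries, at 157 and 65.3 in the osteosarcomas and at 116 and 126 in the soft tissue sarcomas. All tumour libraries were above both NG2 libraries for Mcm2, with log2 fold changes of 1.77 ± 0.53 and 1.89 ± 0.53 (edgeR adjusted p = 0.062 and 0.0563). Mcm4 stood at 103 and 66.6 CPM in the NG2 libraries, at 99.2 and 60.1 in the osteosarcomas and at 76.5 and 125 in the soft tissue sarcomas. Its groups overlapped in both comparisons, at log2 fold changes of -0.09 ± 0.41 and 0.25 ± 0.41 (edgeR adjusted p = 0.896 and 0.686).

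For Mcm3, Mcm5, Mcm6 and Mcm7 both soft tissue sarcomas were above both NG2 libraries, whereas the osteosarcoma values overlapped those of NG2 cells. Mcm6 stood at 92.1 and 82.5 CPM in the NG2 libraries, at 258 and 77.0 in the osteosarcomas and at 176 and 187 in the soft tissue sarcomas. Thus osteosarcoma replicate 1 held the highest Mcm6 value of all 6 libraries and replicate 2 the lowest. The same order, with osteosarcoma replicate 1 highest and replicate 2 lowest, held for Mcm5 (133 and 47.2 CPM) and Mcm7 (145 and 49.1 CPM).

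Levels per kilobase of annotated exon allow the subunits to be compared within a library, as far as the union of annotated exons reflects the transcripts present. Per kilobase, Mcm2 was the lowest of the 6 MCM genes in each of the 6 libraries. Its level divided by the mean of Mcm3 to Mcm7 was 0.291 and 0.197 in the NG2 libraries, 0.559 and 0.649 in the osteosarcomas and 0.643 and 0.553 in the soft tissue sarcomas. This ratio does not depend on how libraries are scaled, and the tumour values were all above the NG2 values. Mcm2 had the largest log2 fold change of the 6 genes in both tumours, so the ratio restates that difference. Neither this ratio nor those between other members given below was tested or is a separate result.

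Of the 8 members of helicase activation, 3 rose in each tumour. Among all tested genes 10.5% rose in osteosarcoma and 9.89% in soft tissue sarcoma. Cdc45 (ENSMUSG00000000028; chromosome 16, 18780447 to 18811987), which joins MCM and GINS in the active helicase, stood at 7.84 and 5.91 CPM in the NG2 libraries, at 33.3 and 21.8 in the osteosarcomas and at 46.6 and 57.4 in the soft tissue sarcomas. The 3 groups did not overlap for Cdc45. It rose 4.01-fold in osteosarcoma (log2 fold change 2.00 ± 0.37, edgeR adjusted p = 0.0191) and 7.56-fold in soft tissue sarcoma (2.92 ± 0.38, edgeR adjusted p = 0.011). Relative to the mean of Mcm3 to Mcm7 per kilobase, Cdc45 stood at 0.103 and 0.106 in the NG2 libraries, 0.235 and 0.431 in the osteosarcomas and 0.512 and 0.5003 in the soft tissue sarcomas.

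Mcm10 (ENSMUSG00000026669; chromosome 2, 4989714 to 5012791), a factor needed to start unwinding, stood at 5.87 and 10.5 CPM in the NG2 libraries, at 40.1 and 27.3 in the osteosarcomas and at 22.6 and 28.5 in the soft tissue sarcomas. It rose 4.12-fold in osteosarcoma (log2 fold change 2.04 ± 0.44, edgeR adjusted p = 0.0272) and 3.13-fold in soft tissue sarcoma (1.65 ± 0.43, edgeR adjusted p = 0.0473). The lowest tumour value of Mcm10 was above the higher NG2 value.

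Of the 4 GINS genes, which encode a complex with each subunit once, 1 passed in each tumour. Gins2 (ENSMUSG00000031821; chromosome 8, 120578633 to 120589304) stood at 6.43 and 11.3 CPM in the NG2 libraries, at 56.9 and 22.1 in the osteosarcomas and at 48.4 and 76.4 in the soft tissue sarcomas. It rose 4.46-fold in osteosarcoma (edgeR adjusted p = 0.0464) and 7.04-fold in soft tissue sarcoma (edgeR adjusted p = 0.0279). Its value is uncertain, because 67.3% of its exon bases are shared with the antisense gene Gse1 and the strand setting of the counting was not stated. Gins1 stood at 6.48 and 4.61 CPM in the NG2 libraries, at 24.6 and 12.8 in the osteosarcomas and at 14.1 and 12.3 in the soft tissue sarcomas. Both tumour groups lay above NG2 cells for Gins1, at edgeR adjusted p of 0.0521 and 0.118. Gins4 likewise lay above, at 22.6 and 29.6 CPM in the NG2 libraries, 43.9 and 32.1 in the osteosarcomas and 54.6 and 56.1 in the soft tissue sarcomas (edgeR adjusted p = 0.239 and 0.0576). Gins3 overlapped between the groups, at 6.93 and 13.7 CPM, 11.7 and 6.51 CPM, and 11.4 and 23.2 CPM in the same order. Per kilobase, Gins2 over Gins3 was 0.614 and 0.545 in NG2 cells and between 2.18 and 3.21 in the 4 tumour libraries.

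Neither gene of the kinase that fires origins passed. Cdc7, its catalytic subunit, stood at 33.0 and 15.6 CPM in the NG2 libraries, at 27.3 and 10.2 in the osteosarcomas and at 19.3 and 25.8 in the soft tissue sarcomas. The groups overlapped for Cdc7, with log2 fold changes of -0.37 ± 0.6 and -0.11 ± 0.6 (edgeR adjusted p = 0.682 and 0.918). Dbf4, its activating subunit, ranged from 11.4 to 25.2 CPM over the 6 libraries and did not pass (edgeR adjusted p = 0.288 and 0.349).

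**Figure D2:**
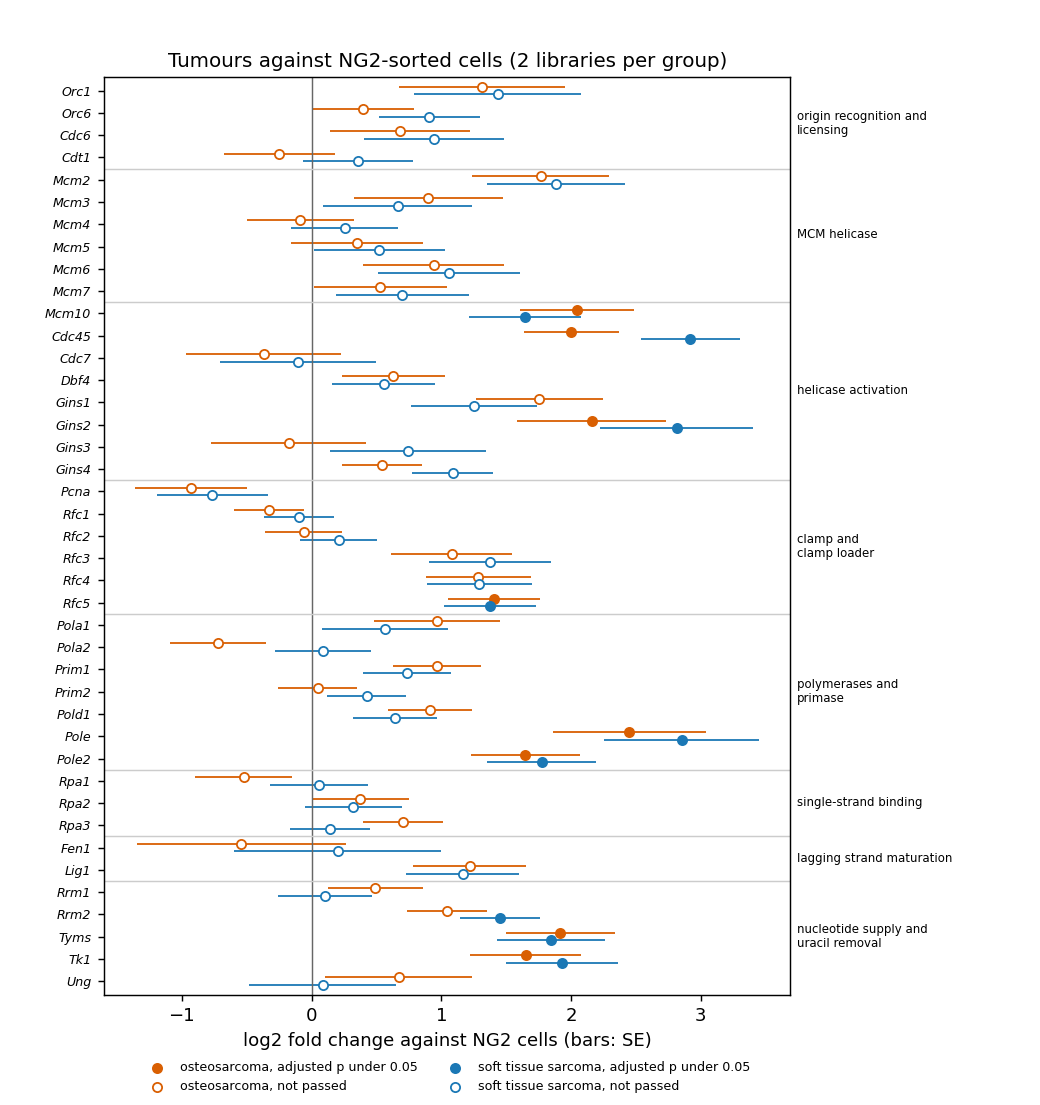
Log2 fold change of each member in osteosarcoma (orange) and soft tissue sarcoma (blue) against NG2 cells, with bars of 1 SE; filled points passed an adjusted p under 0.05. The 8 members filled in both colours are Mcm10, Cdc45, Gins2, Rfc5, Pole, Pole2, Tyms and Tk1, Rrm2 is filled in blue only, and Pcna lies left of 0 in both.

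The values of the sliding clamp gene lay below NG2 cells in the tumours, and those of 3 of its 5 loader genes above. Pcna (ENSMUSG00000027342; chromosome 2, 132249162 to 132253314), which encodes the clamp that tethers polymerases to DNA, stood at 215 and 136 CPM in the NG2 libraries, at 125 and 59.6 in the osteosarcomas and at 110.04 and 96.4 in the soft tissue sarcomas. Both tumour groups were below NG2 cells, but the log2 fold changes of -0.93 ± 0.43 and -0.77 ± 0.43 did not pass (edgeR adjusted p = 0.166 and 0.243). Per kilobase, Pcna was the most abundant of the 41 members in NG2 cells, at a mean of 73.2 CPM per kb against 25.0 for the next, Rpa3. In both tumour groups the highest mean was that of Rrm2, at 40.8 and 54.3 CPM per kb, where Pcna had 38.4 and 43.0. In osteosarcoma Rrm2 (47.4 and 34.3), Rpa3 (47.6 and 33.9) and Pcna (52.0 and 24.8) overlapped in these levels. Rrm2 (44.6 and 63.9) and Pcna (45.9 and 40.2) overlapped in soft tissue sarcoma as well. The annotation holds processed copies of Pcna and of Tyms that could share reads with the parent gene, so both values carry that uncertainty.

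Rfc5 (ENSMUSG00000029363; chromosome 5, 117378103 to 117389047), a subunit of the loader, stood at 23.4 and 29.3 CPM in the NG2 libraries, at 87.8 and 52.1 in the osteosarcomas and at 60.3 and 76.2 in the soft tissue sarcomas. It rose 2.65-fold (log2 fold change 1.41 ± 0.36, edgeR adjusted p = 0.041) and 2.59-fold (1.37 ± 0.36, edgeR adjusted p = 0.0456). Rfc3 and Rfc4, 2 more small subunits, were also higher in every tumour library than in both NG2 libraries. Rfc4 stood at 19.3 and 20.8 CPM in the NG2 libraries, at 64.0 and 33.5 in the osteosarcomas and at 40.4 and 57.8 in the soft tissue sarcomas (edgeR adjusted p = 0.0692 and 0.0715). Rfc1, the large subunit, and Rfc2 overlapped between soft tissue sarcoma and NG2 cells, and neither passed in any comparison. Both osteosarcomas were below both NG2 libraries for Rfc1. Rfc1 ranged from 86.8 to 126 CPM and Rfc2 from 127 to 192 CPM over the 6 libraries. Pcna over the mean of Rfc2 to Rfc5 per kilobase was 6.78 and 4.96 in the NG2 libraries, 1.96 and 1.62 in the osteosarcomas and 2.30 and 1.55 in the soft tissue sarcomas.

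Among the 7 members of the polymerases and primase, Pole and Pole2 rose in both tumours, and Pola1, Pola2, Prim1, Prim2 and Pold1 passed in neither. Pole (ENSMUSG00000007080; chromosome 5, 110286306 to 110337474), the catalytic subunit of the leading strand polymerase, stood at 5.54 and 4.01 CPM in the NG2 libraries, at 39.2 and 12.9 in the osteosarcomas and at 32.8 and 36.1 in the soft tissue sarcomas. It rose 5.45-fold in osteosarcoma (log2 fold change 2.45 ± 0.59, edgeR adjusted p = 0.0366) and 7.21-fold in soft tissue sarcoma (2.85 ± 0.60, edgeR adjusted p = 0.028). Pole2 (ENSMUSG00000020974; chromosome 12, 69201773 to 69228195), an accessory subunit, stood at 4.24 and 5.43 CPM in the NG2 libraries, at 17.5 and 12.8 in the osteosarcomas and at 15.3 and 17.8 in the soft tissue sarcomas. It rose 3.13-fold and 3.42-fold (edgeR adjusted p = 0.0413 and 0.0372), and every tumour library was above both NG2 libraries.

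Pold1, the catalytic subunit of the lagging strand polymerase, stood at 20.03 and 19.7 CPM in the NG2 libraries, at 44.9 and 29.7 in the osteosarcomas and at 31.5 and 30.6 in the soft tissue sarcomas. All tumour libraries lay above NG2 cells for Pold1, at edgeR adjusted p of 0.0926 and 0.201. Prim1, the catalytic primase subunit, lay above likewise, with 17.1 and 17.4 CPM in NG2 cells and between 26.1 and 41.3 CPM in the tumours (edgeR adjusted p = 0.0913 and 0.173). Prim2, the other primase subunit, ranged from 23.8 to 37.7 CPM over the 6 libraries, and Pola1, the catalytic subunit of polymerase alpha, from 16.6 to 64.1 CPM. Pola2, its accessory subunit, stood at 34.0 and 32.6 CPM in the NG2 libraries, at 25.0 and 15.5 in the osteosarcomas and at 29.1 and 41.8 in the soft tissue sarcomas. Both osteosarcomas were below both NG2 libraries for Pola2 (log2 fold change -0.72 ± 0.37, edgeR adjusted p = 0.203), and soft tissue sarcoma overlapped them.

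The 3 subunits of RPA, the protein that coats single-stranded DNA, did not pass in either tumour, with log2 fold changes of -0.52 to 0.70 in osteosarcoma and 0.06 to 0.32 in soft tissue sarcoma. Rpa1, the large subunit, stood at 156 and 104 CPM in the NG2 libraries, at 116 and 65.5 in the osteosarcomas and at 122 and 149 in the soft tissue sarcomas. Rpa3, the smallest, stood at 27.0 and 29.8 CPM in the NG2 libraries, at 54.1 and 38.5 in the osteosarcomas and at 34.2 and 28.4 in the soft tissue sarcomas. Osteosarcoma lay above both other groups for Rpa3 (edgeR adjusted p = 0.148 against NG2 cells), and those 2 groups overlapped. Rpa2 overlapped in both comparisons, between 35.7 and 72.6 CPM.

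Of the enzymes that finish the lagging strand, Lig1, the DNA ligase that seals its fragments, stood at 35.5 and 22.0 CPM in the NG2 libraries, at 89.2 and 44.3 in the osteosarcomas and at 70.01 and 58.8 in the soft tissue sarcomas. All tumour libraries were above NG2 cells for Lig1, and neither difference passed (log2 fold changes 1.22 ± 0.44 and 1.17 ± 0.44, edgeR adjusted p = 0.094 and 0.108). Fen1, the flap nuclease, stood at 9.09 and 2.61 CPM in the NG2 libraries, at 5.78 and 2.24 in the osteosarcomas and at 6.53 and 6.91 in the soft tissue sarcomas. Both tumour groups overlapped NG2 cells for Fen1, and 84.2% of its exon bases are shared with antisense genes, so its level is uncertain.

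Nucleotide supply held 2 calls in osteosarcoma and 3 in soft tissue sarcoma among 5 members, all of them rises. Of all tested genes, 10.5% and 9.89% rose in these comparisons. Tyms (ENSMUSG00000025747; chromosome 5, 30058202 to 30073617), the thymidylate synthase, stood at 27.5 and 42.4 CPM in the NG2 libraries, at 171 and 92.7 in the osteosarcomas and at 107 and 144 in the soft tissue sarcomas. It rose 3.78-fold (log2 fold change 1.92 ± 0.42, edgeR adjusted p = 0.0283) and 3.59-fold (1.84 ± 0.42, edgeR adjusted p = 0.0333). Tk1 (ENSMUSG00000025574; chromosome 11, 117815526 to 117826092), the thymidine kinase of the salvage route, stood at 35.1 and 22.6 CPM in the NG2 libraries, at 121 and 59.7 in the osteosarcomas and at 104 and 115 in the soft tissue sarcomas. It rose 3.14-fold (edgeR adjusted p = 0.0433) and 3.81-fold (edgeR adjusted p = 0.0325). For both genes every tumour library was above both NG2 libraries.

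Ribonucleotide reductase makes deoxynucleotides from ribonucleotides. Rrm2 (ENSMUSG00000020649; chromosome 12, 24708241 to 24714146), the small subunit, stood at 54.3 and 55.6 CPM in the NG2 libraries, at 131 and 94.9 in the osteosarcomas and at 123.5 and 177 in the soft tissue sarcomas. It rose 2.73-fold in soft tissue sarcoma (log2 fold change 1.45 ± 0.31, edgeR adjusted p = 0.0292), and in osteosarcoma its log2 fold change was 1.04 ± 0.31 (edgeR adjusted p = 0.0593). Rrm1, the large subunit, stood at 84.6 and 83.5 CPM in the NG2 libraries, at 154 and 82.1 in the osteosarcomas and at 103 and 77.3 in the soft tissue sarcomas, with overlap in both comparisons (edgeR adjusted p = 0.364 and 0.86). Per kilobase, Rrm2 over Rrm1 was 2.55 and 2.65 in the NG2 libraries, 3.39 and 4.595 in the osteosarcomas and 4.75 and 9.11 in the soft tissue sarcomas. Ung, the uracil-DNA glycosylase that removes misincorporated uracil, ranged from 7.82 to 25.3 CPM and overlapped in both comparisons (edgeR adjusted p = 0.424 and 0.93).

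Soft tissue sarcoma was compared with osteosarcoma to ask whether the tumour types differed in these genes. None of the 41 members passed edgeR's adjusted threshold, which 0.142% of all tested genes passed (0.0841% higher and 0.0578% lower in soft tissue sarcoma). An unadjusted edgeR p under 0.05 was seen for 1 member, Cdc45, and for 3022 of the 19024 tested genes. DESeq2 and limma voom called 0 members where they called 11.2% and 0.689% of all genes. Cdc45 was higher in both soft tissue sarcomas than in both osteosarcomas, by a log2 fold change of 0.92 ± 0.36 (edgeR adjusted p = 0.295). Both soft tissue sarcomas were above both osteosarcomas for 7 members and below both for 1, Rpa3, where 25.8% and 24.5% of all tested genes showed these patterns. The median log2 fold change of the members was 0.17, against -0.026 over all tested genes. The sign of that median rested on osteosarcoma replicate 2: it was -0.21 without that library and 0.78 without osteosarcoma replicate 1.

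The osteosarcoma libraries stood apart from each other in these genes. All 41 members were higher in osteosarcoma replicate 1 than in replicate 2, with a median ratio of 1.78, whereas 47.4% of all tested genes were higher in replicate 1. The ratios ran from 1.07 for Dbf4 to 3.35 for Mcm6, and the 4 highest were those of Mcm6, Mcm3 (3.31), Pole (3.04) and Mcm7 (2.95). In soft tissue sarcoma 35 of 41 members were higher in replicate 2, with 45.9% of all tested genes, and in NG2 cells 29 of 41 were higher in replicate 1, with 49.4% of all tested genes. Markers of other cells also separated the osteosarcomas. The 7 osteoclast markers summed to 919 CPM in replicate 1 and 19812 CPM in replicate 2, and 7 muscle markers to 4.15 and 918 CPM. Acta1 alone gave 3.77 and 859 CPM of the muscle sums. Pax7 was at 0 in both osteosarcomas, and Myf5 was higher in replicate 1. The part of these cells in the lower replication gene values was not tested.

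**Figure D3:**
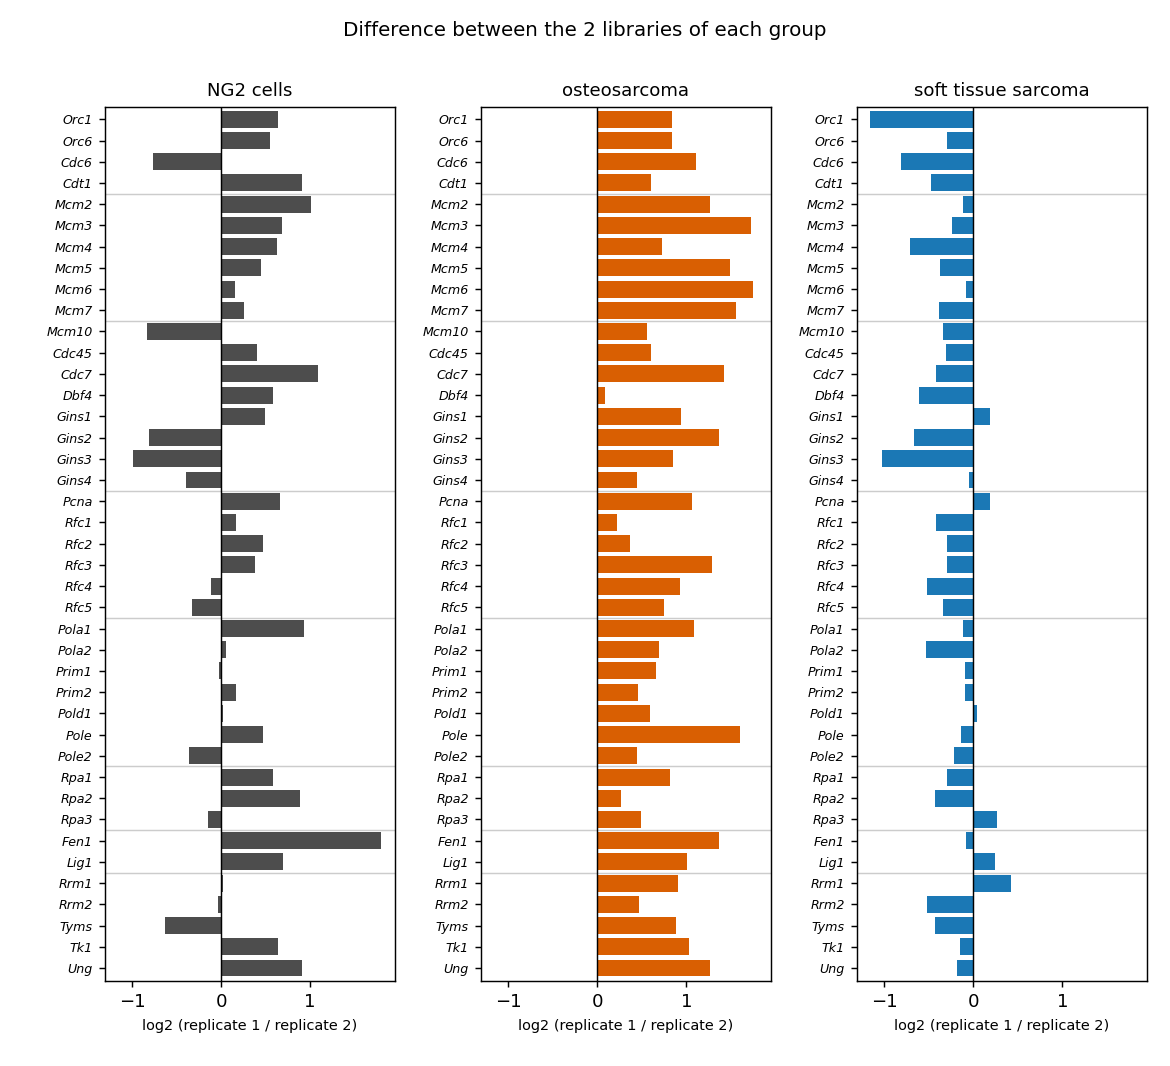
Log2 ratio of replicate 1 to replicate 2 for each member in each group, 1 panel per group. All 41 bars point right in osteosarcoma, from a ratio of 1.07 for Dbf4 to 3.35 for Mcm6, while 35 of 41 point left in soft tissue sarcoma and the NG2 panel is mixed.

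Other genes of the pathway were read from lists set up beside the members. The share of all tested genes beside each list was 10.5% rising and 11% falling in osteosarcoma. In soft tissue sarcoma it was 9.89% and 9.4%. Of 33 further fork and origin genes, 7 rose and 1 fell in osteosarcoma, and 7 rose and 2 fell in soft tissue sarcoma, with Top1 falling in both and Mcmbp in soft tissue sarcoma. Clspn, a checkpoint mediator at the fork, rose 4.41-fold and 3.28-fold (edgeR adjusted p = 0.0125 and 0.0224). Pold2, the accessory subunit of polymerase delta, rose 4.30-fold and 3.52-fold (edgeR adjusted p = 0.017 and 0.0254), unlike Pold1 above, which did not pass. Chtf18, part of an alternative clamp loader, rose 3.39-fold and 5.06-fold (edgeR adjusted p = 0.0223 and 0.014). Top2a, the topoisomerase that untangles sister chromatids, rose 5.87-fold and 3.54-fold (edgeR adjusted p = 0.0133 and 0.03). Top1, the topoisomerase that relaxes supercoils ahead of forks and transcription, stood at 338 and 331 CPM in the NG2 libraries, at 172 and 169 in the osteosarcomas and at 119 and 107 in the soft tissue sarcomas. Top1 fell by 0.97 ± 0.23 and 1.57 ± 0.24 on the log2 scale (edgeR adjusted p = 0.0364 and 0.014).

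Of 27 further nucleotide synthesis genes, 8 rose and none fell in osteosarcoma, and 7 rose and 1 fell in soft tissue sarcoma. Cad, which starts pyrimidine synthesis, stood at 19.6 and 20.2 CPM in the NG2 libraries, at 80.2 and 75.7 in the osteosarcomas and at 52.4 and 73.3 in the soft tissue sarcomas. Dut, the dUTPase that keeps uracil out of DNA, rose 2.70-fold and 3.37-fold (edgeR adjusted p = 0.0248 and 0.0174), and Dtymk, the next kinase after Tyms and Tk1, rose 3.38-fold and 2.80-fold (edgeR adjusted p = 0.0147 and 0.0229). Shmt2, a source of one-carbon units, rose 3.53-fold and 3.65-fold (edgeR adjusted p = 0.0234 and 0.024), and Ctps, which makes CTP, rose 2.20-fold and 3.21-fold (edgeR adjusted p = 0.0478 and 0.021). Samhd1, which degrades deoxynucleotides and is abundant in blood cells, stood at 223 and 263 CPM in the NG2 libraries, at 147 and 111 in the osteosarcomas and at 69.8 and 66.8 in the soft tissue sarcomas. In soft tissue sarcoma Samhd1 dropped by 1.83 ± 0.27 (log2) (edgeR adjusted p = 0.0137), and in osteosarcoma its log2 fold change was -0.91 ± 0.27 (edgeR adjusted p = 0.0581).

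Of 20 mitosis genes, 18 rose in osteosarcoma and 17 in soft tissue sarcoma, where 10.5% and 9.89% of all tested genes rose. Their median log2 fold changes were 2.82 and 2.74, beside 0.70 and 0.74 for the members. Cenpa and Ndc80 passed in neither tumour, and Mki67 passed in osteosarcoma only. Cenpe, a kinetochore motor, stood at 13.1 and 14.4 CPM in the NG2 libraries, at 146 and 145 in the osteosarcomas and at 141 and 171 in the soft tissue sarcomas, and rose 10.6-fold and 11.35-fold (edgeR adjusted p = 0.0042 and 0.0073). Cdc20, an activator of the anaphase promoting complex, rose 14.0-fold and 15.5-fold (edgeR adjusted p = 0.0067 and 0.0086). Cdk1, the kinase of mitotic entry, rose 15.8-fold and 11.7-fold, its cyclin Ccnb2 7.89-fold and 5.57-fold, and the kinase gene Plk1 26.2-fold and 33.6-fold (edgeR adjusted p between 0.0056 and 0.011). The difference between the 2 lists was not tested. In NG2 cells the summed level was 1923 and 1495 CPM for the 41 members and 358 and 314 CPM for the 20 mitosis genes. In the tumours the members summed to 1680 to 3208 CPM and the mitosis genes to 1472 to 2139 CPM. The lowest tumour sum of the members, osteosarcoma replicate 2, lay between the NG2 values, while all tumour sums of the mitosis genes lay above.

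**Figure D4:**
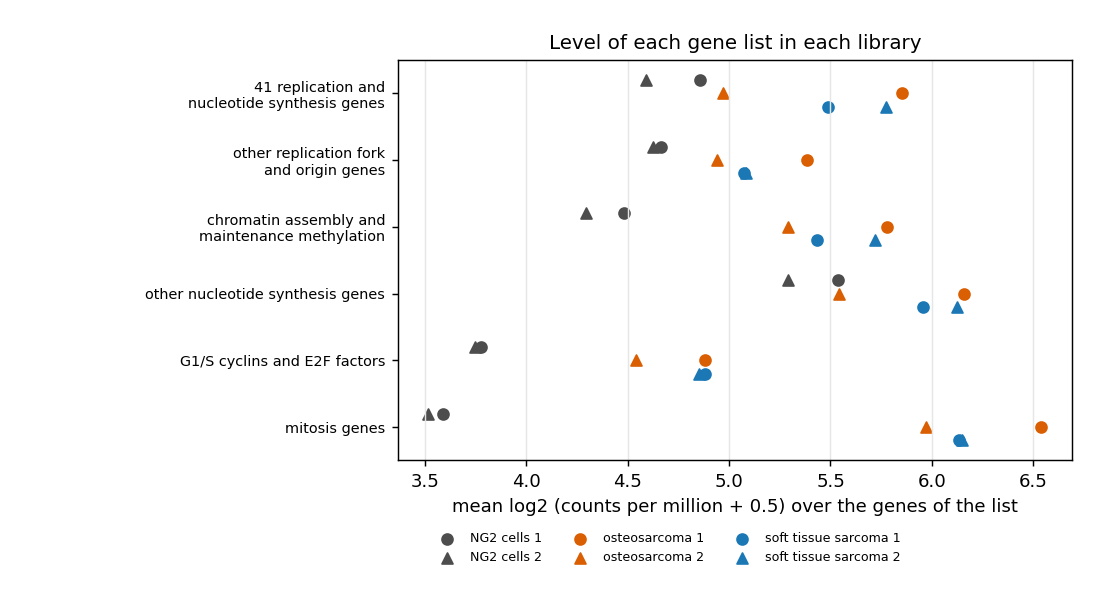
Mean log2 (CPM + 0.5) over the tested genes of each list in each library; circles are replicate 1 and triangles replicate 2. The mitosis genes separate tumours from NG2 cells by the widest gap among these lists, and the members by a narrow one, with osteosarcoma replicate 2 nearest to NG2 cells.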

How the data were processed

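The authors deposited, for each library, unnormalized counts of reads by Ensembl gene. Total RNA had been primed with oligo(dT) and the cDNA amplified by PCR, per the labels' protocols. The submitters' processing notes name STAR and HTSeq, with Trim Galore, cutadapt, FastQC and DESeq2, and the builds GRCm38 and mm10; versions, strand setting and annotation release are not given in the sources used here. Reads set aside as overlapping no gene made up 33.2% of each NG2 library and 19.5% to 23.4% of the tumour libraries. Ambiguous ones made up 2.57% and 2.63% of the NG2 libraries and 2.93% to 3.22% of the tumour libraries. The part of these differences in the results was not tested. PCR copies were not told apart from separate molecules.

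From the deposited counts, edgeR 4.0.16 in R 4.3.3 scaled libraries by TMM, kept 19024 genes (filterByExpr, min.count 10, min.total.count 15), all 41 members among them, and ran quasi-likelihood F tests on all 6 libraries with no covariate. Residual degrees of freedom were 3. Benjamini-Hochberg adjustment ran over all tested genes, and a call is an adjusted p under 0.05. Each SE was taken as the absolute log2 fold change divided by the square root of F. The test was checked on simulated counts. Levels per kilobase use the union of GENCODE M21 exons, which also gave positions. The alternatives used DESeq2 1.42.0, limma 3.58.1 voom, other scalings, no filter, the 2 groups alone, a replicate block and each library left out. The members and lists were chosen with earlier results of these data known. All members are described; the rule gives values per library for members called in any comparison and for the largest and smallest change in each role, and values of further members were added after they were seen. From each other list the 4 genes of lowest p in each tumour comparison with NG2 cells are named, and any others as named counts.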

Additional observations from a re-analysis of the deposited data

How the results depend on the processing

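With 3 residual degrees of freedom, the number of members that rose, 8 in osteosarcoma and 9 in soft tissue sarcoma, depended on the fit. It was 0 and 15 with only the 2 groups compared (11.6% and 30.1% of all genes called in either direction). In osteosarcoma it was 14 with DESeq2 (35.9% of all genes in either direction). Leaving out 1 library at a time gave 0 to 15 in osteosarcoma and 0 to 14 in soft tissue sarcoma; where that left an arm with 1 library, the lone library was assumed to vary like the other groups. Other scalings, no filter and limma voom kept both counts within 1.5 times, and no alternative called a member between the tumours. Replicate numbers are shared across groups, and deviations of same-numbered libraries correlated at 0.076, -0.019 and -0.10 over 19024 genes. With 2 libraries per group, these values cannot show whether same-numbered samples shared an animal or a preparation. With a replicate block the counts were 2 and 4 (14.0% and 11.6% of all genes in either direction).

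No gene that rose changed sign under any alternative. All tumour libraries lay above both NG2 libraries for each of these genes. Leaving out 1 library could therefore hardly reverse a sign, and this stability is no separate support. The alternatives were read gene by gene for 22 members in each tumour comparison with NG2 cells and for 8 between the tumours. Mcm3, Mcm5, Mcm6 and Mcm7 were among those not read. Changes of sign were seen among members that passed in no comparison, and the cause was not tested. Their main log2 fold changes included -0.54 for Fen1 and 0.49 for Rrm1 in osteosarcoma, and -0.59 for Ung between the tumours. In osteosarcoma Prim2 was -0.0061 with RLE size factors and -0.0052 with DESeq2. With library totals Mcm4 was 0.015 and Rfc2 0.037 in osteosarcoma, and Cdc7 0.064 and Rfc1 0.060 in soft tissue sarcoma, where Cdc7 was 0.072 with the replicate block. Leaving out 1 library gave, in osteosarcoma, Cdt1 -0.62 to 0.27, Mcm4 -0.50 to 0.25, Rfc2 -0.27 to 0.18, Fen1 -1.38 to 0.61, Gins3 -0.67 to 0.41, Prim2 -0.20 to 0.27 and Rrm1 -0.036 to 0.89. In soft tissue sarcoma it gave Cdc7 -0.53 to 0.54, Cdt1 -0.012 to 0.89, Mcm4 -0.12 to 0.61, Rpa1 -0.19 to 0.38, Rpa2 -0.039 to 0.83, Fen1 -0.42 to 1.37, Ung -0.28 to 0.62, Rfc1 -0.29 to 0.12 and Pola2 -0.17 to 0.35. Between the tumours it gave Ung -1.08 to 0.22, Rfc3 -0.21 to 1.11 and Mcm4 -0.046 to 0.78.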

Other observations

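Genes that control entry into S phase and genes that rebuild chromatin behind the fork were read from 2 more lists. Beside them, 10.5% of all tested genes rose in osteosarcoma and 9.89% in soft tissue sarcoma, and 11% and 9.4% fell. Of 21 G1/S cyclin and E2F genes, 6 rose and none fell in osteosarcoma, and 8 rose and 1, Rb1, fell in soft tissue sarcoma. Ccna2, the cyclin of S phase kinase, stood at 2.38 and 4.45 CPM in the NG2 libraries, at 40.6 and 38.0 in the osteosarcomas and at 28.4 and 44.5 in the soft tissue sarcomas. Skp2, which targets cell cycle inhibitors for degradation, rose 11.7-fold and 13.0-fold (edgeR adjusted p = 0.015 and 0.0153). Ccnd1, cyclin D1, rose 9.10-fold and 15.8-fold (edgeR adjusted p = 0.022 and 0.0159). Tfdp1, the dimer partner of E2F factors, rose 3.99-fold and 5.39-fold (edgeR adjusted p = 0.0239 and 0.0172).

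Of 8 genes of chromatin assembly and maintenance methylation, 3 rose in osteosarcoma and 5 in soft tissue sarcoma, and none fell. Chaf1a, the large subunit of the histone chaperone CAF-1, stood at 1.72 and 0.481 CPM in the NG2 libraries, at 16.2 and 17.1 in the osteosarcomas and at 9.43 and 9.74 in the soft tissue sarcomas. Uhrf1, which brings the methyltransferase Dnmt1 to newly copied DNA, rose 4.91-fold and 4.56-fold (edgeR adjusted p = 0.02 and 0.0239). Chaf1b, another CAF-1 subunit, rose 4.84-fold and 3.33-fold (edgeR adjusted p = 0.0238 and 0.0466). Hells, a chromatin remodeller, rose 3.55-fold and Dnmt1 1.94-fold in soft tissue sarcoma (edgeR adjusted p = 0.0253 and 0.0393). Nasp, a histone chaperone, was lower in every tumour library, with 160 and 191 CPM in NG2 cells and 49.2 to 107 CPM in the tumours (edgeR adjusted p = 0.0517 and 0.108).

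The genes whose log2 CPM was most like the mean of the members over the 6 libraries, by Pearson's r, were 2810004N23Rik (0.996), Tusc3 (0.996) and Polr2h (0.994); the libraries share their scaling, and 6 points give many high values among 19024 genes. Among the members themselves r with this mean ran from -0.21 for Pcna and -0.0028 for Rfc1 to 0.997 for Rfc3. Of the 9 members that rose in at least 1 tumour comparison, 7 had a promoter window and 1, Pole2, held an E2F-type word. Of the 32 others, 27 had a window and 12 held a word. Only exact words were searched, and the difference was not tested.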
